A study of Mus musculus with 12 samples.

Results

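Gabrb1, Gabrb2, Gabrg1 and Gabrg3, which encode the beta1, beta2, gamma1 and gamma3 subunits of the GABA-A receptor, were followed across 12 RNA sequencing libraries of the mouse medial prefrontal cortex (mPFC). They were taken from the deposited gene table by symbol, and all 4 were found among its 34745 genes. The mice were wild-type (WT) males, and the tissue dates from day 28, which is 4 weeks after chronic constriction injury (CCI), in which loose ligatures around the sciatic nerve produce lasting neuropathic pain. After CCI, 4 libraries came from the right mPFC (contralateral to the nerve) and 4 from the left mPFC (ipsilateral). The naive group holds 4 libraries of mice with no treatment that were habituated, and their hemisphere is not in the labels. The sample codes carry a number and a side, and a right and a left library that share a number were taken to come from one mouse, although no label states it. Strain and age are not given in the labels used here. The naive mice had no operation, so the injury and the surgery itself cannot be told apart.

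GABA-A receptors are chloride channels built of 5 subunits around a pore, usually alpha, beta and gamma or delta, and they carry most fast inhibition in the cortex. Beta subunits form the GABA binding sites together with alpha subunits. Receptors with beta2 are abundant in the adult brain, while receptors with beta1 respond less to the anaesthetic etomidate. The benzodiazepine site lies between an alpha and a gamma subunit, and receptors with gamma1 respond to classical benzodiazepines more weakly than other gamma-containing receptors. Subunit genes stand in clusters in mammalian genomes.

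In these data Gabrb2 was the most abundant of the 4 mRNAs per length and Gabrg1 the least. No member changed in any of the 4 comparisons at an adjusted p under 0.05. In ipsilateral libraries Gabrg3 averaged 1.14 times and Gabrg1 0.854 times its naive level, and the ranges of Gabrg1 did not overlap, as in 4.73% of tested genes. Across libraries Gabrb2 and Gabrg3 tended to be high together, and Gabrg1 tended to be low where they were high. Naive 3 went against this, with the highest Gabrb2 of all libraries but Gabrg1 within the range of the other naive libraries.

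By the deposited coordinates (GRCm38/mm10), Gabrb1 (ENSMUSG00000029212) spans chromosome 5 from 71658113 to 72149037 on the plus strand and Gabrg1 (ENSMUSG00000001260) spans chromosome 5 from 70751047 to 70842617 on the minus strand. Gabrb2 (ENSMUSG00000007653) spans chromosome 11 from 42419757 to 42629028 on the plus strand. Gabrg3 (ENSMUSG00000055026) spans chromosome 7 from 56716465 to 57387188 on the minus strand. The spans were identical to those of GENCODE M21, from which the strands were taken, and the coding transcript with most exons has 9 exons in Gabrb1 and Gabrg1 and 10 in Gabrb2 and Gabrg3. The count of a gene in the deposited table covers its whole model, so exons and isoforms were not told apart. The first 196 bases of Gabrb1 overlap Gabra4, the alpha4 subunit gene on the opposite strand, which had 1642 to 2146 counts per library. An antisense gene, Gm43477, overlaps Gabrb1 over 19557 bases and had 6 to 13 counts per library, while another, Gm9962, lies 83 bases from Gabrg3. It is not stated whether counting used the strand.

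The promoters of Gabrb2, Gabrg1 and Gabrg3 are shown because these 3 mRNAs tended to move together or in opposite directions across the libraries. Each window runs from 250 bases before to 50 bases after a RefSeq start (GRCm38.p6), 5′ to 3′ on the strand of the gene. RefSeq lists 3 starts for Gabrb2, of which the one shown is that whose following bases occur in a GENCODE M21 transcript. This does not show that a transcript begins there. The start shown, at 42421201, lies inside the Gabrb2 span, which begins at 42419757, and so do the other Gabrb2 starts. The Gabrb2 window is chr11:42420951-42421250 on the plus strand, the Gabrg1 window chr5:70842568-70842867 on the minus strand, and the Gabrg3 window chr7:57387166-57387465 on the minus strand. Capitals mark matches on either strand to TATAAA (the TATA box), to GGGCGG (the GC box), to TGACGT (the core of the cAMP response element) or to CCAAT (the CCAAT box).
Gabrb2: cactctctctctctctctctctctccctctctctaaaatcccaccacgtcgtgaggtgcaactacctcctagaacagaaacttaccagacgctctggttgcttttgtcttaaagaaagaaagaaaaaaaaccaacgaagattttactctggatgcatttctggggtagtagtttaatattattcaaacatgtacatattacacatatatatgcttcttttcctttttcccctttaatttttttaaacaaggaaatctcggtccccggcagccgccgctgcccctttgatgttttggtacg
Gabrg1: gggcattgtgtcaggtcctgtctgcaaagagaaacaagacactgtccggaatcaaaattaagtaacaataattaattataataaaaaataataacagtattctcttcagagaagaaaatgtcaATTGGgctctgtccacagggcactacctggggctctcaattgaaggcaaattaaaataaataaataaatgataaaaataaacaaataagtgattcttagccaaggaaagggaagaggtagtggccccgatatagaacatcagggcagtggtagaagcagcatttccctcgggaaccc
Gabrg3: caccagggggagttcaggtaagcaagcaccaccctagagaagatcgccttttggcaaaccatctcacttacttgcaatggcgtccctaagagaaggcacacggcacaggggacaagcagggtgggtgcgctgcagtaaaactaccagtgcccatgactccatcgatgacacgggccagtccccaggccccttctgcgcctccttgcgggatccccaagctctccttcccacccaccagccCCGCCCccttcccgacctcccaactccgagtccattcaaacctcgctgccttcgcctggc
The Gabrb2 window held no match, the Gabrg1 window held 1 match to CCAAT, read as ATTGG, and the Gabrg3 window held 1 match to GGGCGG, read as CCGCCC. The matches depend on the start chosen: of the windows at the other annotated Gabrb2 starts, the first held 1 TATAAA and 1 GGGCGG, and the next held 1 CCAAT. Of 32851 RefSeq promoters of the same length, 37.4% held CCAAT, 35.7% GGGCGG, 13.6% TATAAA and 7.51% TGACGT. The G and C content was 41.0% in the Gabrb2 window, 38.3% in the Gabrg1 window and 61.0% in the Gabrg3 window, against a median of 52.7% over all promoters. The Gabrg3 window held 13 CpG dinucleotides and the Gabrg1 window 3, against a median of 7.

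Depth was similar across libraries, with total counts of 16089476 to 20647242 per library and 6.89 to 9.28% of counts from the 13 mitochondrially encoded genes. All 4 members passed the filter on low counts, with 2219 to 3048 counts for Gabrb1, 1939 to 3289 for Gabrb2, 305 to 548 for Gabrg1 and 699 to 1091 for Gabrg3. Levels below are CPM, counts scaled to the library total with TMM factors, and levels between genes are compared only as the deposited FPKM, which is per kilobase. All 8 markers of cortical excitatory neurons were detected in every library, and Slc17a7, the vesicular glutamate transporter of cortex, stood at 1658 to 2003 CPM. Summed striatal markers reached 394 CPM in contralateral 1 and 183 to 228 CPM in every other library, and their part in the results was not tested. In bulk tissue, fewer cells of a type and less RNA per cell cannot be told apart.

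The beta subunits were the more abundant. Gabrb2 had 14.07 to 23.8 FPKM over the 12 libraries and Gabrb1 9.08 to 11.8 FPKM. Gabrg3 followed with 3.21 to 4.35 FPKM and Gabrg1 with 1.74 to 2.80 FPKM. The order was the same in every library, and the ranges of neighbours in it did not overlap. Of the summed FPKM of the 4 genes, Gabrb2 took 51.6 ± 5.2% in contralateral, 56.2 ± 1.8% in ipsilateral and 51.5 ± 4.0% in naive libraries (SD, n = 4 each). Gabrg1 took 6.73 ± 2.03% in contralateral, 5.32 ± 0.25% in ipsilateral and 6.75 ± 0.95% in naive libraries (SD, n = 4 each). FPKM depends on the gene lengths used: those implied by the deposited values were longer than the GENCODE M21 exons of Gabrg1 (10912 against 7869 bases) and Gabrb2 (7683 against 6360 bases). With the M21 lengths, a scale chosen after seeing the data, Gabrg1 passed Gabrg3 in contralateral 4 (3.86 against 3.24 CPM per kilobase), and the order held in the other 11 libraries.

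Gabrb1, the beta1 subunit gene, was the steadiest. It had 157, 139, 127 and 143 CPM in contralateral 1 to 4, 129, 148, 141 and 138 CPM in ipsilateral 1 to 4, and 144, 145, 164 and 139 CPM in naive 1 to 4. The 3 ranges overlapped, with naive 3 highest and contralateral 3 lowest. The biological coefficient of variation estimated by edgeR was 9.16% for Gabrb1, against a median of 10.8% over all tested genes.

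Gabrb2, the beta2 subunit gene, varied most. It had 137, 173, 115 and 107 CPM in contralateral 1 to 4, 167, 159, 151 and 157 CPM in ipsilateral 1 to 4, and 111, 127, 183 and 128 CPM in naive 1 to 4. The ipsilateral libraries lay close together and inside the range of the naive ones, where naive 3 stood above the others. Contralateral 2 and naive 3 were the highest of all and contralateral 4 the lowest. Its coefficient of variation of 16.9% was above that of 78.0% of tested genes.

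Gabrg1, the gamma1 subunit gene, had 21.9, 19.1, 24.1 and 30.3 CPM in contralateral 1 to 4, 19.9, 22.7, 21.1 and 21.5 CPM in ipsilateral 1 to 4, and 25.7, 23.9, 25.0 and 25.3 CPM in naive 1 to 4. Every ipsilateral library lay below every naive one, and 4.73% of tested genes had ranges that did not overlap between these groups. The contralateral libraries spread beyond both, with contralateral 2 the lowest and contralateral 4 the highest of the 12.

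Gabrg3, the gamma3 subunit gene, had 46.5, 51.0, 42.2 and 38.7 CPM in contralateral 1 to 4, 51.1, 52.9, 51.0 and 47.4 CPM in ipsilateral 1 to 4, and 40.8, 45.9, 48.2 and 41.8 CPM in naive 1 to 4. Ipsilateral 1 to 3 were above all naive ones, and ipsilateral 4 was below naive 3. The plot of levels by library shows these values for the 4 genes.

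**Figure D1:**
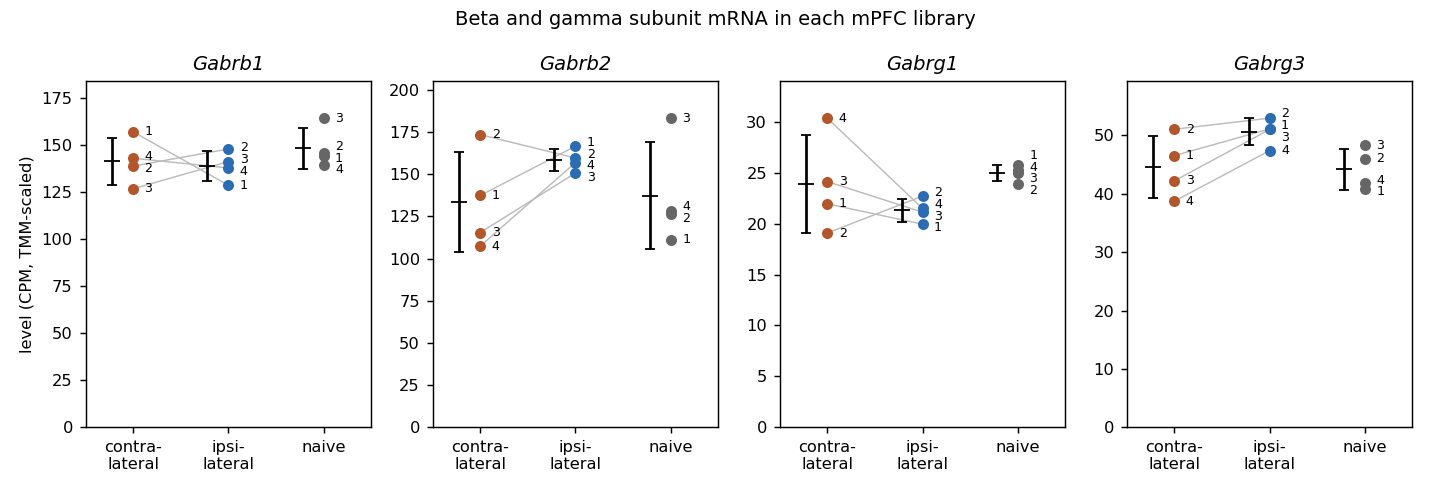
Level of each gene (y axis, CPM with TMM factors, from 0) in contralateral, ipsilateral and naive libraries; points are libraries with their replicate number, grey lines join libraries read as hemispheres of one mouse, and bars give the mean and SD (n = 4). All 4 ipsilateral points of Gabrg1 (19.9 to 22.7) lie below the naive ones (23.9 to 25.7), while the contralateral points of Gabrb2 run from 107 to 173.

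The first comparison set the contralateral, right mPFC of CCI mice against naive mPFC. None of the 4 genes passed in edgeR's quasi-likelihood test with Benjamini-Hochberg adjustment over 15808 tested genes, and 0.0% of these genes did. Of all genes, 597 had an unadjusted p under 0.05 in edgeR, and 0 passed with limma and 3 with DESeq2. Gabrb1 averaged 141 ± 12.5 CPM in contralateral libraries and 148 ± 10.9 CPM in the naive ones (SD, n = 4 each), and its log2 fold change was -0.07 (SE 0.07, edgeR adjusted p = 1.00). Gabrb2 averaged 133 ± 29.5 CPM in contralateral libraries and 137 ± 31.5 CPM in the naive ones, with a log2 fold change of -0.04 (95% interval -0.41 to 0.32). Both groups of Gabrb2 spread more than they differed. Gabrg1 averaged 23.9 ± 4.8 CPM in contralateral libraries and 25.0 ± 0.77 CPM in the naive ones, with a log2 fold change of -0.06 (95% interval -0.30 to 0.17). Gabrg3 averaged 44.6 ± 5.3 CPM in contralateral libraries and 44.2 ± 3.5 CPM in the naive ones, with a log2 fold change of 0.01 (95% interval -0.17 to 0.19). The adjusted p was 1.00 for each of the 4. None of the 4 had an unadjusted p under 0.05, which 3.78% of tested genes had, and the ranges of all 4 overlapped, as they did for all but 2.2% of tested genes. Without contralateral 2, the fold changes of Gabrg1 (0.03) and Gabrg3 (-0.05) took the opposite sign.

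The second comparison set the ipsilateral, left mPFC of CCI mice against naive mPFC. Again none of the 4 genes passed, nor did any tested gene in edgeR (0.0%) or limma, while 763 genes had an unadjusted p under 0.05 in edgeR and 9 passed with DESeq2. Gabrg1 averaged 21.3 ± 1.1 CPM in ipsilateral libraries and 25.0 ± 0.77 CPM in the naive ones (SD, n = 4 each), and its log2 fold change was -0.23 (SE 0.11, 95% interval -0.47 to 0.01, edgeR adjusted p = 0.972). The unadjusted edgeR p of Gabrg1 was 0.0593 in this fit, whose spread is estimated from the contralateral libraries too. Gabrg1 was the only one of the 4 members whose ranges did not overlap, a pattern found in 4.73% of tested genes. Gabrg3 averaged 50.6 ± 2.3 CPM in ipsilateral libraries and 44.2 ± 3.5 CPM in the naive ones, with a log2 fold change of 0.19 (SE 0.08, 95% interval 0.02 to 0.37, edgeR adjusted p = 0.972). With an unadjusted edgeR p of 0.0356, it was under 0.05, which 4.83% of tested genes were. With total-count scaling the unadjusted p was 0.0481 for Gabrg1 and 0.0509 for Gabrg3, so which gamma gene was under 0.05 depended on the scaling. In a fit of only the 2 groups compared, the unadjusted edgeR p was 0.0045 for Gabrg1 and 0.0132 for Gabrg3 (edgeR adjusted p = 0.418 and 0.502). In that fit 1168 of 15516 tested genes had an unadjusted p under 0.05. The gamma subunit genes thus had fold changes of opposite sign, neither past the adjusted threshold.

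For the beta subunit genes in the same comparison, Gabrb2 averaged 158 ± 6.6 CPM in ipsilateral libraries and 137 ± 31.5 CPM in the naive ones, with a log2 fold change of 0.21 (SE 0.17, edgeR adjusted p = 0.972). This value rests in part on naive 3, without which the fold change is 0.38 (edgeR adjusted p = 0.907). Gabrb1 averaged 139 ± 8.0 CPM in ipsilateral libraries and 148 ± 10.9 CPM in the naive ones, with a log2 fold change of -0.09 (95% interval -0.25 to 0.06). Markers of other cell types differed between the same libraries, beside Gabrg1 and Gabrg3 alike. All 8 endothelial and mural markers had negative fold changes in ipsilateral against naive libraries (median -0.18), with a summed level of 230 to 264 CPM in ipsilateral and 254 to 303 CPM in naive libraries. All 7 meningeal and fibroblast markers did too (median -0.56), with a summed level of 31.4 to 50.7 CPM in ipsilateral and 45.7 to 65.2 CPM in naive libraries. Of the microglia markers 6 of 7 had negative fold changes (median -0.08), with a summed level of 367 to 383 CPM in ipsilateral and 378 to 445 CPM in naive libraries. All 8 oligodendrocyte markers had positive ones (median 0.20), with a summed level of 2279 to 4380 CPM in ipsilateral and 2520 to 3291 CPM in naive libraries. Excitatory neuron markers were 5 positive and 3 negative, interneuron markers 6 and 2, and astrocyte markers 2 and 6. Of all tested genes 49.9% had positive fold changes. Over the 12 libraries the mean oligodendrocyte marker level ran with r = -0.71 against Gabrg1 and 0.66 against Gabrg3, and the microglia one with r = 0.71 and -0.67. No single marker passed, and the part of these cell types in the Gabrg1 and Gabrg3 differences was not tested.

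**Figure D2:**
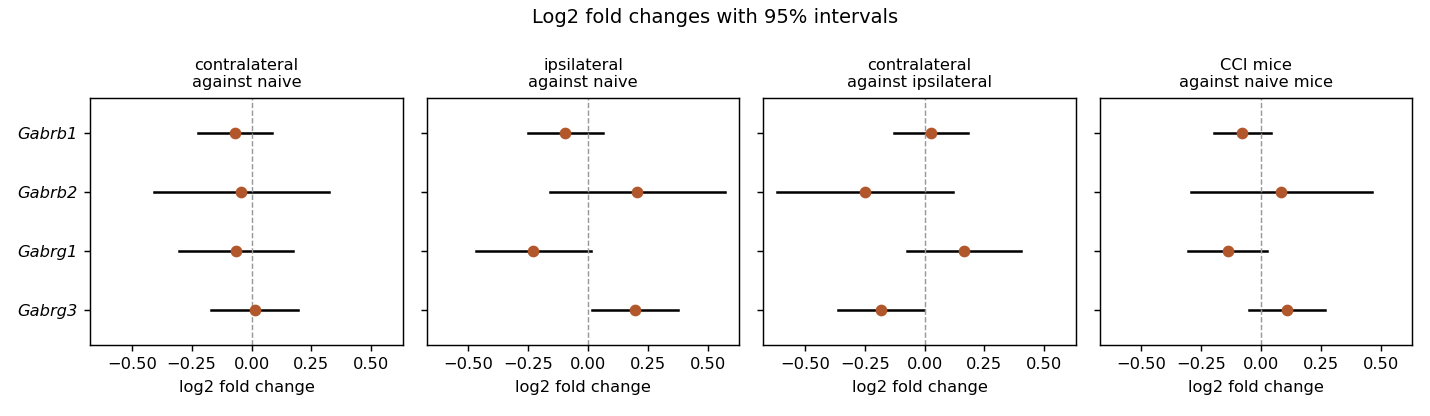
Log2 fold changes (x axis) of the 4 genes in the 4 comparisons, as points with 95% intervals from the edgeR fits; the first-named group of each panel is over the second, and the dashed line marks 0. Intervals of Gabrb2 are the widest, and the interval of Gabrg3 in ipsilateral against naive libraries runs from 0.02 to 0.37.

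The third comparison set right against left mPFC in CCI mice. No member passed, and 0.0% of tested genes did in edgeR, with 0 in limma and in DESeq2 and 1322 at an unadjusted p under 0.05 in edgeR. Gabrg3 averaged 44.6 ± 5.3 CPM in contralateral libraries and 50.6 ± 2.3 CPM in the ipsilateral ones (SD, n = 4 each), and its log2 fold change was -0.18 (SE 0.08, edgeR adjusted p = 0.592). Its unadjusted edgeR p was 0.0474, and 8.36% of tested genes were under 0.05 in this comparison. With only these groups and the replicate number as a block, a fit added after seeing the data, edgeR gave an unadjusted p of 0.0388 for Gabrb2 (log2 fold change -0.27) and 0.0284 for Gabrg3 (edgeR adjusted p = 0.821 for both). In that fit 725 of 15526 tested genes had an unadjusted p under 0.05. The ranges of Gabrg3 overlapped, as they did for all but 2.95% of tested genes. Read as hemispheres of one mouse, the right minus left difference of Gabrg3 was -0.14, -0.05, -0.27 and -0.29 on the log2 scale in mice 1 to 4, lower on the right in 4 of 4. The share of tested genes with the same sign in 4 of 4 was not computed, so this count has no background. Gabrb2 stood at -0.28, 0.12, -0.38 and -0.55 in the same mice, lower on the right in all but mouse 2, with a fitted log2 fold change of -0.25 (SE 0.17, edgeR adjusted p = 0.684). Gabrg1 had the opposite pattern, with right minus left differences of 0.14, -0.25, 0.19 and 0.50 and a fitted log2 fold change of 0.16 (SE 0.11, edgeR adjusted p = 0.683). Gabrb1 differed by 0.29, -0.09, -0.16 and 0.05 in mice 1 to 4, with no common direction, and its fitted log2 fold change was 0.03 (95% interval -0.13 to 0.18). Mouse 2 thus ran against the other mice for Gabrb2 and Gabrg1. Without both of its libraries, 286 genes passed in this comparison, and none of the 4 members was among them. Contralateral 2 and contralateral 4 moved the fold changes most. Without contralateral 2 they were -0.40 for Gabrb2, 0.26 for Gabrg1 and -0.25 for Gabrg3, and 159 genes passed, again with no member among them. Without contralateral 4 they were -0.16 for Gabrb2, 0.029 for Gabrg1 and -0.12 for Gabrg3.

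Markers of other cell types differed between the hemispheres too. All 8 astrocyte markers had positive fold changes, right against left (median 0.26), with a summed level of 1207 to 4067 CPM in contralateral and 1120 to 3421 CPM in ipsilateral libraries. That sum largely follows Slc1a2, which ran from 295 to 2786 CPM over the 12 libraries. Slc1a3 ran from 436 to 735, Gfap from 14.2 to 119 and Aqp4 from 68.3 to 118 CPM. All 8 endothelial and mural markers had positive fold changes too (median 0.26), at 229 to 344 CPM in contralateral and 230 to 264 CPM in ipsilateral libraries. All 7 microglia markers did as well (median 0.20), at 359 to 515 CPM in contralateral and 367 to 383 CPM in ipsilateral libraries. So did the 7 meningeal and fibroblast markers (median 0.58), at 26.4 to 72.5 CPM in contralateral and 31.4 to 50.7 CPM in ipsilateral libraries, the 6 oligodendrocyte precursor markers (median 0.20) and the 8 oligodendrocyte markers (median 0.13). Of the striatal markers 7 of 8 were positive (median 0.37), which rests largely on contralateral 1, at a summed 394 CPM. Contralateral 2 to 4 had 221, 209 and 183 CPM, against 187 to 224 CPM in ipsilateral libraries. The neuronal lists leaned the other way. Cortical excitatory neuron markers were 2 positive and 6 negative (median -0.11), and interneuron markers were 2 positive and 6 negative (median -0.04). Of all tested genes 51.1% had positive fold changes. No marker of these lists passed, and their part in the differences of Gabrb2, Gabrg1 and Gabrg3 was not tested.

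When the counts of the right and left library read as one mouse were summed, CCI mice were compared with naive mice with 1 value per presumed animal. Each CCI value thus joins both hemispheres, while each naive value is 1 library of unstated hemisphere. The SDs of CCI and naive mice below are therefore not like measures. None of the 4 genes passed, nor did any of 16179 tested genes in edgeR (0.0%) or limma, while 679 had an unadjusted p under 0.05 in edgeR and 31 passed with DESeq2. Gabrb1 averaged 140 ± 4.5 CPM in CCI mice and 148 ± 10.8 CPM in naive mice (SD, n = 4 each), with a fitted log2 fold change of -0.08 (SE 0.05). Gabrb2 averaged 146 ± 16.1 CPM in CCI mice and 137 ± 31.4 CPM in naive mice, a log2 fold change of 0.08 (SE 0.16). Gabrg1 averaged 22.7 ± 2.4 CPM in CCI mice and 25.0 ± 0.74 CPM in naive mice, a log2 fold change of -0.14 (SE 0.08), and Gabrg3 47.6 ± 3.8 CPM in CCI mice and 44.2 ± 3.5 CPM in naive mice, a log2 fold change of 0.11 (SE 0.07). The edgeR adjusted p was 1.00 for each, and none had an unadjusted p under 0.05, which 4.2% of tested genes had. The ranges of all 4 overlapped, as they did for all but 2.71% of tested genes. CCI mice 1 to 3 had 20.9, 21.1 and 22.6 CPM of Gabrg1, below all naive mice, while CCI mouse 4 was above all of them. The 95% intervals bound these differences at -0.20 to 0.04 for Gabrb1, -0.29 to 0.46 for Gabrb2, -0.30 to 0.03 for Gabrg1 and -0.05 to 0.27 for Gabrg3.

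The balance between subunits of one class was taken as the log2 ratio of their counts in each library, which does not depend on the scaling of the library. The Gabrg1 over Gabrg3 ratio was -1.36, -1.22, -1.27 and -1.14 in ipsilateral 1 to 4, against -0.67, -0.94, -0.95 and -0.73 in naive 1 to 4. The groups did not overlap, and the difference was -0.43. The exact two-sided permutation p was 0.0286, the smallest that 4 against 4 libraries can give (adjusted p = 0.229 over the 8 ratio tests). How many other gene pairs have ratios without overlap was not computed. The ratio also restates the Gabrg1 and Gabrg3 values of the same libraries, so it is no separate evidence. In contralateral libraries the same ratio ran from -1.42 to -0.35, on both sides of the naive values (difference -0.09, exact permutation p = 0.714, adjusted p = 0.816). The Gabrb1 over Gabrb2 ratio was -0.37, -0.11, -0.09 and -0.19 in ipsilateral 1 to 4, against 0.37, 0.20, -0.16 and 0.12 in naive 1 to 4, lower in 4 of 4 ipsilateral libraries than the naive mean. That difference was -0.33 (exact permutation p = 0.0857, adjusted p = 0.305). It was -0.03 for contralateral against naive libraries (exact permutation p = 0.914). Right against left, Gabrb1 over Gabrb2 differed by 0.30 and Gabrg1 over Gabrg3 by 0.33 (exact sign-flip permutation p = 0.25 for each, with 0.125 the smallest possible), higher on the right in 3 of 4 mice for each. These differences were 0.46 and 0.51 without mouse 2, and 0.19 and 0.18 without mouse 4. Between CCI and naive mice they differed by -0.18 and -0.25 (exact permutation p = 0.2 and 0.114, adjusted p = 0.333 and 0.305). No ratio test passed after adjustment, but a single ratio could not have done so. At the smallest possible exact permutation p of 0.0286 the adjusted p was 0.229, so these tests could hardly decide.

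**Figure D3:**
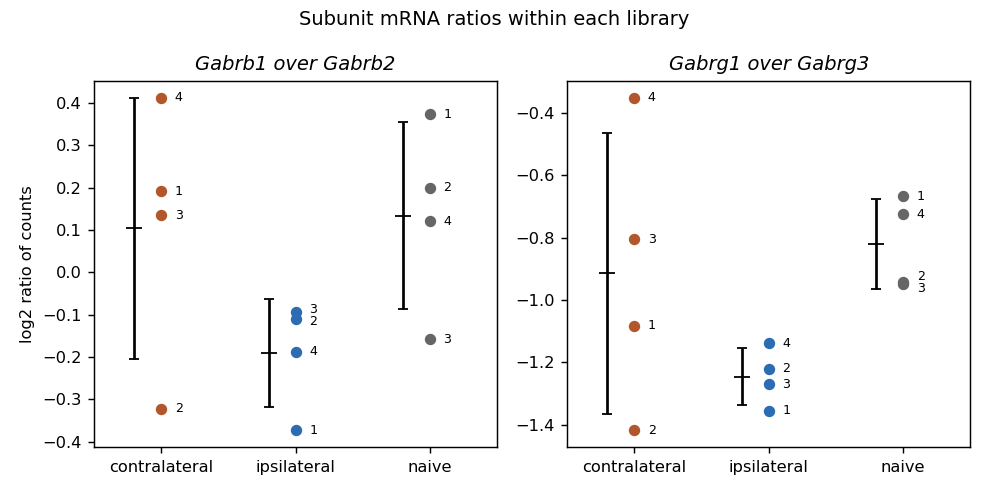
Log2 ratio of counts (y axis) of Gabrb1 over Gabrb2 and of Gabrg1 over Gabrg3 in contralateral, ipsilateral and naive libraries; points are libraries with their replicate number, bars the mean and SD (n = 4). The ipsilateral Gabrg1 over Gabrg3 points (-1.36 to -1.14) lie below all naive points (-0.95 to -0.67), and contralateral points spread over both.

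Across the 12 libraries the members varied together in 2 ways. Gabrb2 and Gabrg3, on different chromosomes, were high in the same libraries (Pearson r = 0.88, Spearman rho = 0.87, n = 12). Gabrg1 and Gabrg3 ran in opposite directions (r = -0.83, rho = -0.80), as did Gabrb2 and Gabrg1 (r = -0.70, rho = -0.66). Without the 2 libraries farthest from the median of the first-named gene these values were 0.79, -0.73 and -0.48. Over the same libraries Gabrb1 had r = 0.22 with Gabrb2, 0.24 with Gabrg1 and 0.10 with Gabrg3. Without 2 libraries its value with Gabrb2 was -0.36. These are descriptions without a test, since 8 of the libraries were read as pairs of hemispheres, which no label states. With 1 value per mouse the first 3 pairs had r = 0.82, -0.82 and -0.44 (n = 8), and Gabrb1 had r = 0.62 with Gabrb2, 0.19 with Gabrg1 and 0.28 with Gabrg3.

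Library measures moved along with these genes. The mitochondrial share of counts ran with r = -0.81 against Gabrb2, -0.73 against Gabrg3 and 0.70 against Gabrg1 (n = 12). Without the 2 libraries farthest from the median share these values were -0.71, -0.47 and 0.41. Contralateral 4, with the largest share (9.28%), had the highest Gabrg1 and the lowest Gabrb2 and Gabrg3. The mean level of the 8 endothelial and mural markers ran with r = -0.80 against Gabrb2, -0.77 against Gabrg3 and 0.76 against Gabrg1. That of the 7 meningeal and fibroblast markers ran with r = 0.81 against Gabrg1, and that of the 8 interneuron markers with r = -0.77 against Gabrb1. Against Gabrb2, Gabrg1 and Gabrg3 the interneuron value was 0.02, -0.36 and 0.18. The excitatory neuron markers ran with r = 0.10, 0.25, -0.01 and 0.18 against Gabrb1, Gabrb2, Gabrg1 and Gabrg3. Most values named before these are large ones, and not all pairs of gene and marker list are given. The part of cell makeup and of RNA quality in the shared variation was not tested.

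Neighbours within subunit clusters were set beside the members. Gabra2, the alpha2 subunit gene 114979 bases from Gabrg1, was high and low in the same libraries as Gabrg1 (r = 0.85, rho = 0.83, n = 12). It averaged 44.1 ± 7.5 CPM in ipsilateral libraries and 54.5 ± 5.8 CPM in the naive ones (SD, n = 4 each), and its log2 fold change was -0.30 (SE 0.16, edgeR adjusted p = 0.972). Gabra5, the alpha5 subunit gene 20483 bases from Gabrg3, ran with it at r = 0.36, and Gabra4, which overlaps Gabrb1, ran with that gene at r = 0.20. The antisense gene Gm9962, 83 bases from Gabrg3, had 32 to 60 counts per library and ran with Gabrg3 at r = 0.50. Its log2 fold change was 0.48 in ipsilateral against naive libraries (SE 0.18, edgeR adjusted p = 0.972), of the same sign as that of Gabrg3. Whether the 2 genes share reads was not tested.

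**Figure D4:**
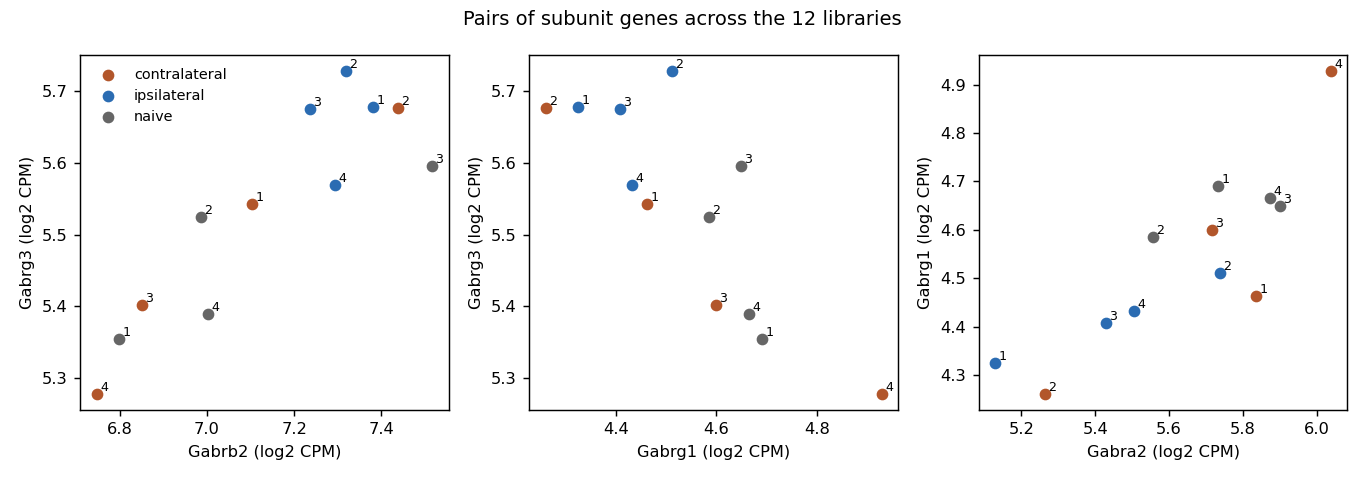
Pairs of subunit genes on the log2 CPM scale of both axes, with each point a library labelled by its replicate number and coloured by group. Gabrg3 is high where Gabrb2 is high (r = 0.88) and low where Gabrg1 is high (r = -0.83), and Gabrg1 is high where its neighbour Gabra2 is high (r = 0.85).

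Over all tested genes, those whose log2 CPM ran most like a member were named as a description. For Gabrb1 they were Lonrf1, Rab3c and Epb41l4a (r = 0.91, 0.90 and 0.90, n = 12 libraries). For Gabrb2 they were Hspa4l, a heat shock protein gene, Pgm2l1 and Dennd5b (r = 0.98, 0.97 and 0.97). For Gabrg1 they were Kirrel3, a synaptic adhesion gene, Jph4 and Prkg2 (r = 0.93 for each), and for Gabrg3 they were Ptk2, which encodes focal adhesion kinase, Zyg11b and Plxna2, a semaphorin receptor (r = 0.95, 0.93 and 0.93).

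The other genes of GABA signalling passed in none of the 4 comparisons. Of 13 genes of alpha, delta and other subunits 7 were tested, and all 7 had negative fold changes in contralateral against naive libraries (median -0.08, against 0.00 over all tested genes). Among them Gabra3, the alpha3 subunit gene, stood at -0.12 (SE 0.06). In ipsilateral against naive libraries 3 of the 7 were positive and 4 negative (median -0.00). Right against left, Gabra3 stood at -0.16 (SE 0.06, edgeR adjusted p = 0.592).

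All 17 genes of receptor scaffold and trafficking were tested. Of these, 5 were positive and 12 negative in contralateral against naive libraries (median -0.05), and 12 positive and 5 negative in ipsilateral against naive libraries (median 0.02). Nlgn2, the neuroligin of inhibitory synapses, averaged 270 ± 18.4 CPM in contralateral libraries and 308 ± 11.5 CPM in the naive ones (SD, n = 4 each), and its log2 fold change was -0.19 (SE 0.06, edgeR adjusted p = 1.00). Plcl1, which encodes a protein that binds GABA-A receptor beta subunits and phosphatases, stood at 0.28 (SE 0.09) in the same comparison. In ipsilateral against naive libraries Shisa7, an auxiliary receptor subunit gene, stood at -0.15 and Plcl2 at 0.26. Nsf, a factor of membrane fusion, stood at -0.16 on the right against the left.

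Of 9 genes of GABA synthesis, transport and breakdown 8 were tested, with 5 positive and 3 negative in ipsilateral against naive libraries (median 0.03). Gad1, which makes GABA, averaged 336 ± 31.5 CPM in contralateral libraries and 389 ± 27.1 CPM in the ipsilateral ones (SD, n = 4 each), and its log2 fold change was -0.21 (SE 0.07, edgeR adjusted p = 0.592). Slc32a1, the vesicular GABA transporter gene, stood at -0.17 (SE 0.07) in that comparison. Slc6a13, a GABA transporter gene that is also one of the meningeal markers above, stood at -0.84 (SE 0.37) in ipsilateral against naive libraries. All 6 genes of GABA-B receptors were tested, and of these Gabbr2, a GABA-B receptor subunit gene, stood at -0.16 on the right against the left, with Kctd12, an auxiliary subunit gene, at 0.23. Of the chloride transporters that set the GABA-A reversal potential, Slc12a2 (NKCC1) stood at 0.21 (SE 0.16) and Slc12a5 (KCC2) at -0.01 (SE 0.08) in contralateral against naive libraries.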

How the data were processed

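Per the labels, total RNA was extracted with a TransZol Up Plus kit and libraries were made with Illumina mRNA kits. HISAT2 2.0.4 and GRCm38/mm10 are listed, with no role, in the submitters' processing notes. How reads were counted, and over which annotation release, is not given in the sources used here. The deposited table holds raw counts per gene and library and, per the file headers, FPKM values, which the authors scaled by gene length and total. FPKM served only to compare genes and was not tested. Spans, strands and overlaps were read from GENCODE M21, and promoters from RefSeq (GRCm38.p6).

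Tests of the counts used edgeR 4.0.16 (R 4.3.3; TMM factors, filterByExpr by group, robust quasi-likelihood fits, two-sided, Benjamini-Hochberg adjustment over all tested genes, threshold 0.05). One fit held the 12 libraries in 3 groups, another the 8 mice with hemispheres summed. Labels do not say whether libraries of a group came from separate mice beyond their codes, so p-values measure the spread between these samples. Ratios of counts, with 0.5 added, were compared by exact permutation over 70 arrangements, or 16 sign flips between hemispheres. Correlations used log2 CPM with a prior count of 2. The number of libraries and their depth, 16089476 to 20647242 counts, limit the precision. Alternatives were other scalings, filters, DESeq2 1.42.0, limma 3.58.1, a replicate block, fits of only the groups compared, and leaving out libraries. The scripts were tested on simulated data.

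The members, gene lists and marker lists were chosen with earlier results of these data known. Named were the 4 members, up to 3 genes of smallest unadjusted p per GABA list and comparison (the text gives some of them), subunit genes within 1 Mb, genes overlapping a member, and the 3 genes most like each member. Some genes that this rule covers are not reported here.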

Additional observations from a re-analysis of the deposited data

How the results depend on the processing

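No member passed the adjusted threshold under any alternative run. No subunit ratio did either, but a single ratio at its smallest possible p could not pass. Over all alternatives the log2 fold change in ipsilateral against naive libraries lay between 0.16 and 0.24 for Gabrg3 (edgeR, limma or DESeq2 p 0.013 to 0.095, lowest adjusted p = 0.502) and between -0.26 and -0.20 for Gabrg1 (p 0.0045 to 0.138, lowest adjusted p = 0.418). The unadjusted p was under 0.05 in 14 settings of 20, the reported one included, for Gabrg3 and in 4 for Gabrg1.

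Counts of passing genes, 0 in each comparison as reported, moved with the settings. In CCI against naive mice 4 genes passed with total-count scaling and 5 with no filter. With DESeq2, 3 passed in contralateral against naive, 9 in ipsilateral against naive and 31 in CCI against naive mice. With only the 2 groups compared, 1 and 7 passed in contralateral and ipsilateral against naive. Without both libraries of mouse 2, the counts were 1, 4 and, right against left, 286; Gabrg1 (0.034) and Gabrg3 (-0.053) then took the opposite sign in contralateral against naive. The cause of these moves was not tested.

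Leaving out 1 library at a time gave 0 to 2 passing genes in contralateral against naive, 0 to 1 in ipsilateral against naive, 0 to 159 right against left (159 without contralateral 2) and 0 to 6 between mice. Signs turned in contralateral against naive for Gabrb2 (-0.19 to 0.13), Gabrg1 (-0.20 to 0.034), Gabrg3 (-0.053 to 0.079), Gabrb1 over Gabrb2 (-0.13 to 0.11) and Gabrg1 over Gabrg3 (-0.28 to 0.074), right against left for Gabrb1 (-0.030 to 0.077), and between mice for Gabrb2 (-0.0026 to 0.255). Right against left, Gabrb2 lay between -0.40 and -0.16, Gabrg1 between 0.029 and 0.26 and Gabrg3 between -0.25 and -0.12 (lowest adjusted p = 0.112).

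Same-numbered libraries did not deviate together (r of -0.14 to 0.06 over 15808 genes between hemispheres, -0.09 to 0.10 with naive). With the replicate number as a block, 1 gene passed in contralateral against naive, 1 in ipsilateral against naive, 0 right against left and 1 between mice. Added after seeing the data, the block with only the 2 groups compared gave 2 and 6 genes in contralateral and ipsilateral against naive.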
